A study of Ovis aries with 18 samples.

Results

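Aminoacyl-tRNA synthetases attach amino acids to their tRNAs before translation. Members of the family were taken from the embryo count table by symbol: one letter followed by ARS, ARS1 or ARS2, plus EPRS, EPRS1, FARSA, FARSB and TARSL2. The rule found 36 genes of the 20092 in the table, 20 cytosolic enzymes and 16 mitochondrial enzymes whose symbols end in 2. All 36 had at least 15 counts in more than 3 pools, as did 16488 genes of the table. HARS2 was not analysed here.

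The embryos were blastocysts flushed 8 days after Polypay ewes were joined with 1 of 6 Polypay rams. The 3 control rams (Ram410, Ram423, Ram444) ate a basal diet. The 3 methionine-treated rams (Ram424, Ram498, Ram511) ate that diet topped with 1.5 g of methionine in a rumen-protected form, which passes the rumen undegraded. Feeding lasted 77 days in both groups, and the rams were 88 days old on average when it began. A methionine supplement is described for the rams only. The ewes were synchronized and superovulated with hormones, and breeding followed the feeding period by about 2 months. RNA sequencing was done on 12 pools of 5 embryos, 6 from control sires (2 pools each from Ram410, Ram423 and Ram444) and 6 from treatment sires (4 from Ram424, 1 from Ram498 and 1 from Ram511), and sperm DNA methylation was read by reduced representation bisulfite sequencing (RRBS) in the 6 rams. Pools with the same sire may also have the same dam, so p-values over pools measure the spread between these pools.

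Each synthetase recognises a single amino acid and its tRNAs, except EPRS, which joins the glutamate and proline enzymes in 1 protein. Nuclear genes encode separate enzymes for the cytosol and for mitochondria, but KARS (lysine) and GARS (glycine) each give both. Several cytosolic enzymes, among them EPRS, IARS, LARS, MARS, QARS, KARS and RARS, sit in a multi-synthetase complex, and uncharged tRNA is sensed by the kinase EIF2AK4, which lowers general translation when amino acids are scarce. MARS and MARS2 charge methionine, the amino acid fed to the sires, and MARS also charges the initiator tRNA that starts every cytosolic protein. CARS and CARS2 charge cysteine, which cells can make from methionine through transsulfuration.

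Total counts assigned to genes were 1017847 to 2398589 a pool, and the family took 2268 to 7957 of them. A pair of pools stood apart from the rest over all genes: Embryo444_2 (control) and Embryo511_1 (methionine) had Spearman correlations of 0.526 to 0.626 with other pools, against 0.806 to 0.955 among the other 10. The blastocyst label was checked against markers. Summed levels of 6 trophectoderm markers were 195 and 136 CPM (counts scaled to the TMM-normalized library size) in Embryo444_2 and Embryo511_1 and 5116 to 14252 CPM in the other 10 pools. The inner cell mass markers POU5F1 and NANOG summed to 24.1 and 47.6 CPM in those pools against 143 to 535 CPM. The zona genes ZP2 and ZP3 summed to 63.0 and 616 CPM against 39.3 to 69.2 CPM. Not every marker followed its sum. NANOG was 9.91 and 7.93 CPM against 5.10 to 16.3 CPM, and KRT19 was 8.49 and 18.8 CPM against 6.23 to 59.5 CPM. The hypoblast markers summed to 233 and 276 CPM against 417 to 952 CPM, but GATA4 and PDGFRA were not lower. PTPRC (blood) was 121 and 254 CPM against 40.2 to 76.5 CPM. MUC1 (uterine epithelium) was 53.1 and 13.9 CPM against 8.85 to 17.5 CPM. Of the 30 marker and partner genes measured, only SOX17 was at 0 in any pool. Results are therefore given with and without these pools. Embryo424_1 and Embryo424_2 were the closest pair (chi-square per degree of freedom 3.29, with 8.29 for the next pair), which is above sampling noise, and were kept as separate pools.

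No gene of the family passed FDR under 0.05 between sire diets in edgeR's quasi-likelihood test, and neither did any of the 16488 genes tested (0%). The likelihood-ratio test called 5 genes and DESeq2 16, none of them members. At an unadjusted p under 0.05 there were 5 of 36 members (13.9%), beside 7.92% of all genes tested. The 3 members with higher levels in embryos from treatment sires (CARS, FARSB and RARS) were cytosolic, where 3.55% of all genes had such a p and a higher level. The 2 with lower levels (VARS2 and LARS2) were mitochondrial, where 4.37% of all genes had such a p and a lower level. Their FDR was 0.584 to 0.608, so none of the 5 was called. Without Embryo444_2 and Embryo511_1 there were 4 members with such a p (CARS, FARSB, RARS and VARS2), beside 11.9% of the 16161 genes tested, and the lowest FDR among members was 0.228.

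CARS, the cytosolic cysteinyl-tRNA synthetase, had the smallest p of the family. Its level was 28.6 and 31.2 CPM in the pools of Ram410, 46.4 and 46.2 CPM in those of Ram423, and 34.8 and 15.6 CPM in those of Ram444. In embryos from treatment sires it was 86.5, 72.5, 64.9 and 63.4 CPM in the pools of Ram424, 95.1 CPM in the pool of Ram498 and 48.6 CPM in that of Ram511. The pools of the 2 diets did not overlap, although the highest control pool, Embryo423_1, and the lowest methionine pool, Embryo511_1, lay close together. The means were 33.8 ± 11.7 CPM (SD, n = 6) and 71.8 ± 16.8 CPM (SD, n = 6), a log2 fold change of 1.09 (SE 0.28, 95% interval 0.50 to 1.67; edgeR unadjusted p = 0.0011, FDR = 0.584). The exact two-sided permutation test of mean log2(CPM + 1) gave p = 0.0022 over all assignments of the 12 pools and p = 0.1 over the 20 assignments of rams, the smallest value that 3 rams against 3 allow. CARS was the only member without overlap between diets, beside 0.352% of all genes tested in either direction and 0.158% with the higher level in embryos from treatment sires. Without Embryo444_2 and Embryo511_1 the control pools were 28.6 to 46.4 CPM and the methionine pools 63.4 to 95.1 CPM, and the log2 fold change was 1.02 (SE 0.22; edgeR FDR = 0.228). It was again the only member without overlap, beside 1.76% of all genes in those 10 pools.

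CARS2, the mitochondrial enzyme for the same amino acid, rested on a single pool. Its level in control pools was 11.4 CPM at the lowest, 26.6 CPM at the median and 50.4 CPM at the highest, and in methionine pools 10.9, 30.5 and 151 CPM, the last of these in Embryo498_1. The log2 fold change was 0.76 (95% interval -0.41 to 1.94; edgeR FDR = 0.742), and without Embryo498_1 it was -0.07. Embryo498_1 thus held the highest level of both cysteine enzymes, whereas Embryo511_1 had the lowest CARS2 level of all 12 pools.

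The methionine enzymes showed no difference between diets that the test could resolve. MARS was 33.6 CPM at the lowest, 57.0 CPM at the median and 85.3 CPM at the highest in control pools, and 31.7, 59.1 and 70.7 CPM in methionine pools. The log2 fold change of MARS was 0.02 (95% interval -0.54 to 0.58; edgeR FDR = 0.994; exact permutation p = 0.905 over pools and 1 over rams). The pools of the 2 diets overlapped, with the highest control pool above all methionine pools, and the interval still holds changes of up to about 0.58 on the log2 scale in either direction. MARS2 was 11.3, 19.9 and 26.3 CPM (lowest, median, highest) in control pools and 3.97, 18.2 and 34.5 CPM in methionine pools. Its log2 fold change was -0.04 (95% interval -0.88 to 0.80; edgeR FDR = 0.987; exact permutation p = 0.654 over pools and 0.6 over rams). The lowest value, in Embryo511_1, stood for 4 counts (exact Poisson 95% interval 1.09 to 10.2 counts, for counting error only).

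**Figure D1:**
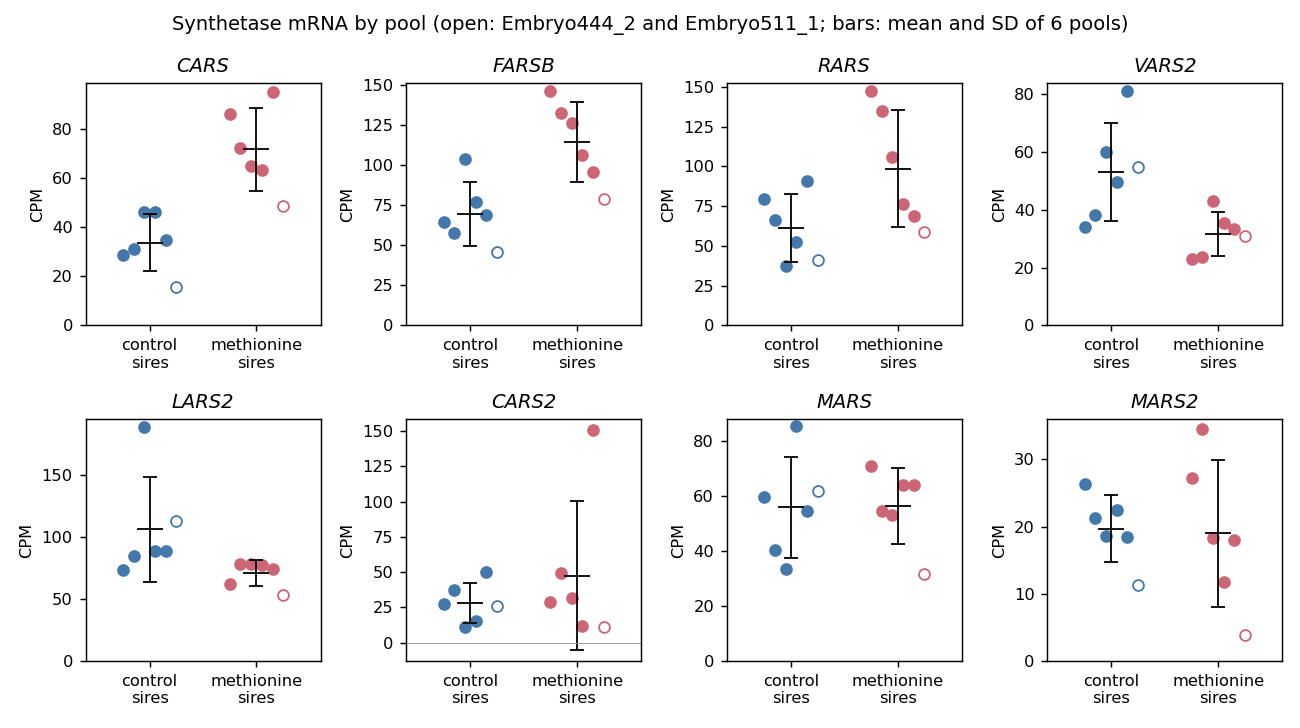
Level in CPM (linear axis) of 8 synthetase genes in each embryo pool, with control sires on the left and methionine sires on the right of each panel. Bars give the mean and SD of 6 pools, and open points are Embryo444_2 and Embryo511_1. CARS is the panel in which the groups do not overlap (15.6 to 46.4 against 48.6 to 95.1 CPM), and the CARS2 mean of embryos from treatment sires is raised by 1 pool at 151 CPM.

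FARSB and FARSA encode the beta and alpha subunits of the cytosolic phenylalanine enzyme, which works as a tetramer of both. FARSB was 46.0 CPM at the lowest, 66.8 CPM at the median and 104 CPM at the highest in control pools and 79.3, 117 and 147 CPM in methionine pools. The upper control pool (Embryo423_1) overlapped the lower methionine pools. The log2 fold change of FARSB was 0.72 (SE 0.24; edgeR unadjusted p = 0.0091, FDR = 0.584; exact permutation p = 0.0087 over pools and 0.2 over rams). FARSA, its partner subunit, had the opposite sign at -0.43 (95% interval -0.99 to 0.12; edgeR FDR = 0.695). FARS2, the single-chain mitochondrial enzyme, was at 0.21 (95% interval -0.46 to 0.88).

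RARS, the cytosolic arginine enzyme, was 37.1 CPM at the lowest, 59.6 CPM at the median and 90.8 CPM at the highest in control pools and 58.5, 91.3 and 147 CPM in methionine pools. The groups overlapped, and the 3 highest values were all from Ram424 (147, 135 and 106 CPM). The log2 fold change was 0.69 (SE 0.30; edgeR unadjusted p = 0.033, FDR = 0.608), while exact permutation gave p = 0.0563 over pools and 0.5 over rams. By ram the mean level was 73.2, 44.9 and 65.9 CPM for Ram410, Ram423 and Ram444 and 116, 68.6 and 58.5 CPM for Ram424, Ram498 and Ram511, so the methionine-treated rams other than Ram424 lay within the control range. Without the pools of Ram424 the log2 fold change of RARS was 0.06, and that of FARSB 0.33. RARS2, the mitochondrial enzyme for arginine, was at -0.01 on the log2 scale (95% interval -0.55 to 0.53).

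The 2 mitochondrial genes with a p under 0.05 charge branched-chain amino acids, which was seen only after they were picked by p. The other mitochondrial enzyme for such an amino acid, IARS2 (isoleucine), had the opposite sign at 0.30 (95% interval -0.17 to 0.78). VARS2 (valine) was 33.9 CPM at the lowest, 52.0 CPM at the median and 80.9 CPM at the highest in control pools and 22.9, 31.9 and 43.1 CPM in methionine pools. The lower 2 control pools, both of Ram410, lay inside the methionine range. The log2 fold change of VARS2 was -0.75 (SE 0.27; edgeR unadjusted p = 0.0124, FDR = 0.585; exact permutation p = 0.0152 over pools and 0.1 over rams). Its cytosolic counterpart VARS was at 0.04 (95% interval -0.55 to 0.63). LARS2 (leucine) was 73.7, 88.6 and 189 CPM (lowest, median, highest) in control pools and 53.5, 76.2 and 78.3 CPM in methionine pools. A single control pool, Embryo410_1, fell inside the methionine range, and the highest control value came from Embryo423_1. The log2 fold change of LARS2 was -0.58 (SE 0.25; edgeR unadjusted p = 0.0333, FDR = 0.608; exact permutation p = 0.0108 over pools and 0.1 over rams), and it rested in part on Embryo423_1. Without that pool LARS2 was at -0.34 (edgeR unadjusted p = 0.129, FDR = 0.667), and without Embryo444_2 and Embryo511_1 at -0.51 (edgeR unadjusted p = 0.0582). LARS, the cytosolic leucine enzyme, was at 0.12 (95% interval -0.44 to 0.68).

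**Figure D2:**
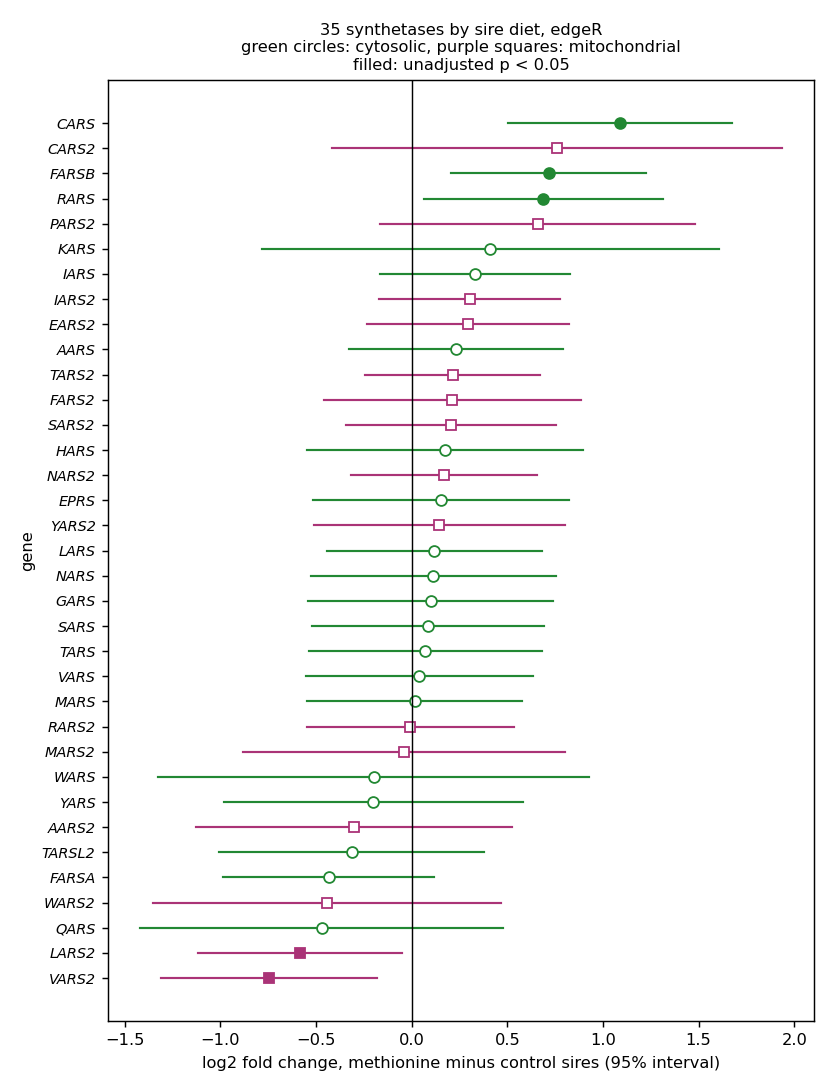
Log2 fold change between embryos from treatment and control sires with its 95% interval (edgeR, x axis) for 35 synthetase genes (y axis), ordered by size. Green circles are the 20 cytosolic and purple squares 15 mitochondrial enzymes, and filled symbols have an unadjusted p under 0.05. CARS (1.09) is at the top and VARS2 (-0.75) at the bottom, and 30 of the 35 intervals include 0.

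Of the 20 cytosolic enzymes 15 had a positive fold change, of the 16 mitochondrial enzymes 9, and of all genes tested 50.5%. The median log2 fold change was 0.11 in the cytosolic class, 0.16 in the mitochondrial class and 0.01 over all genes tested. These counts depended on how the rams were weighted. With pools summed per ram, 8 of 20 cytosolic and 8 of 16 mitochondrial members were positive, with medians of -0.08 and 0.00. Without the pools of Ram424 the counts were 6 of 20 and 7 of 16. Both settings lower the weight of Ram424 and raise that of Embryo511_1, so the parts of these cannot be told apart. Without Embryo444_2 and Embryo511_1 the counts were 14 of 20 and 10 of 16.

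The summed level varied more over pools in the cytosolic than in the mitochondrial class. Single genes of the 2 classes varied alike, with a median SD of log2(CPM + 1) of 0.51 in each. The summed level of the 16 mitochondrial genes was 736 to 964 CPM over the 12 pools, a 1.31-fold range with a coefficient of variation of 7.43%. The summed level of the 20 cytosolic genes was 1141 to 3255 CPM, a 2.85-fold range with a coefficient of variation of 28.9%. The 2 lowest cytosolic sums were those of Embryo444_2 (1141 CPM) and Embryo511_1 (1385 CPM), and without them the coefficients were 21.4% for the cytosolic and 8.05% for the mitochondrial genes. Much of this spread was carried by KARS and WARS: with both left out, the cytosolic sum ranged from 1034 to 1859 CPM with a coefficient of 15.6%, or 10.6% over the 10 pools. Levels of different genes were not compared with each other, since CPM is not scaled to transcript length.

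The log2 ratio of the cytosolic to the mitochondrial sum, in which gene length cancels between pools only for an unchanged mix of genes, was 1.25 ± 0.52 (SD, n = 6) in control pools and 1.40 ± 0.44 (SD, n = 6) in methionine pools. The ranges overlapped almost completely (0.39 to 1.98 and 0.68 to 1.86). The difference of 0.15 was smaller than the SD of either group, and it was 0.09 without KARS and GARS, 0.11 without KARS and WARS and 0.12 without Embryo444_2 and Embryo511_1. The 4 highest ratios belonged to Embryo423_1 (1.98), Embryo424_1 (1.86), Embryo424_2 (1.73) and Embryo424_4 (1.55), and the lowest to Embryo444_2 (0.39) and Embryo511_1 (0.68). Of the 20 cytosolic genes 15 lay below their own 12-pool mean in Embryo444_2 and 14 in Embryo511_1, and of the 16 mitochondrial genes 9 did so in each. Such counts were not particular to these pools, as Embryo410_2 had 16 cytosolic and 7 mitochondrial genes below their mean. The share over all genes was not counted.

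**Figure D3:**
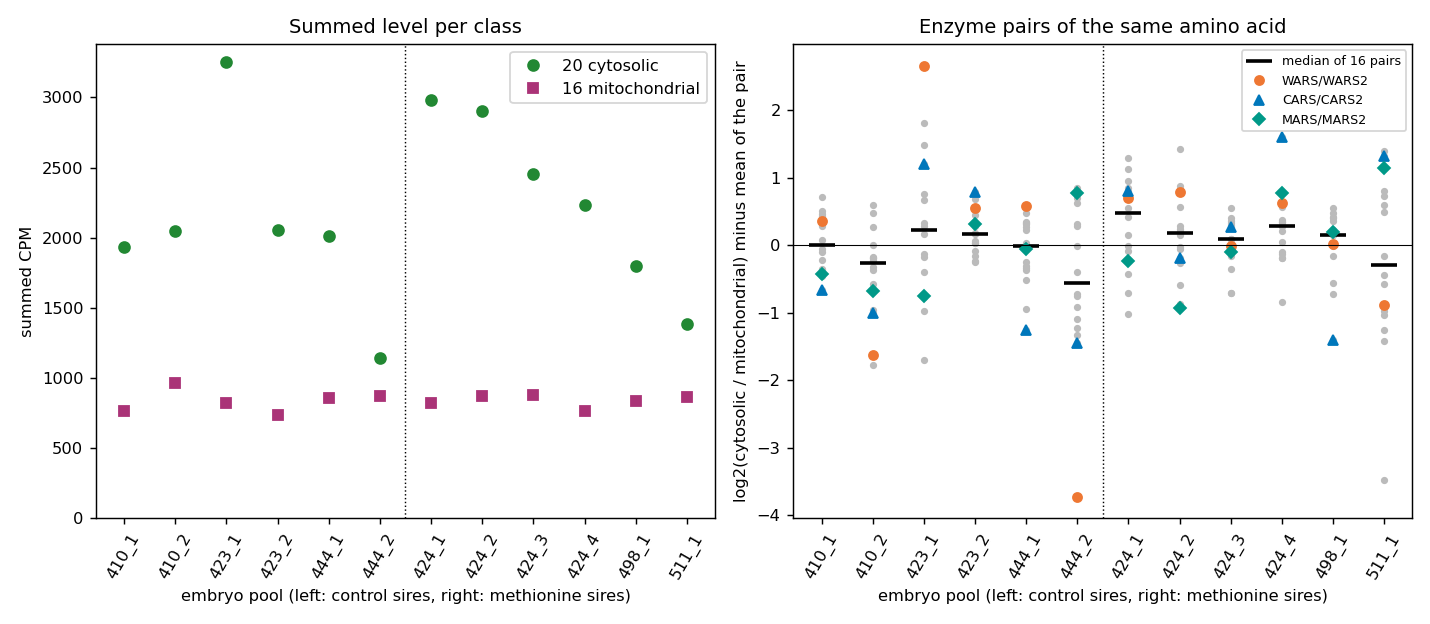
Left, summed CPM of the 20 cytosolic (circles) and 16 mitochondrial (squares) synthetase genes in each pool. Right, log2 ratio of the cytosolic to the mitochondrial enzyme in each pool minus the mean of that pair over 12 pools, for 16 pairs (grey), 3 of them marked, with the median as a bar. The mitochondrial sum stays between 736 and 964 CPM while the cytosolic sum runs from 1141 to 3255 CPM, and the WARS/WARS2 ratio is highest in Embryo423_1 and lowest in Embryo444_2.

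There were 16 pairs that charge the same amino acid, 12 of them with matching names, with EPRS set against EARS2 and PARS2, and FARSA and FARSB each against FARS2. None of the 16 log2 ratios, taken on log2(CPM + 1), separated the pools by diet. The mean ratio was higher in methionine pools in 10 pairs and lower in 6, with differences from -0.52 (FARSA/FARS2) to 0.80 (CARS/CARS2). Without Embryo444_2 and Embryo511_1, 6 of the 16 differences changed sign, CARS/CARS2 fell to 0.40, AARS/AARS2 went from 0.26 to 0.65, and the range was -0.65 (FARSA/FARS2) to 0.84 (VARS/VARS2). The ratio of CARS to CARS2 was 0.34 ± 1.12 (SD, n = 6) in control and 1.14 ± 1.10 (SD, n = 6) in methionine pools, a difference smaller than the SD of either group. Over all 12 pools the VARS/VARS2 ratio differed by 0.77 (-0.03 ± 0.44 against 0.74 ± 0.49; SD, n = 6 each) and MARS/MARS2 by 0.28 (1.43 ± 0.60 against 1.72 ± 0.74; SD, n = 6 each). The SD over the 12 pools was smallest for NARS/NARS2 (0.45), the asparagine enzymes, and largest for WARS/WARS2 (1.55), the tryptophan enzymes. In 10 of the 16 pairs the lowest ratio fell in Embryo444_2 (6 pairs) or Embryo511_1 (4 pairs).

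KARS, WARS and CARS2 varied most between pools, with SDs of log2(CPM + 1) of 1.23, 1.01 and 1.06. KARS was 61.6 CPM at the lowest, 394 CPM at the median and 710 CPM at the highest in control pools and 74.4, 570 and 838 CPM in methionine pools. The lowest values belonged to Embryo444_2 and Embryo511_1, and in the other 10 pools KARS was 238 to 838 CPM, with an SD of 0.59. WARS, which interferon induces, was 46.0, 183 and 923.6 CPM in control pools and 140, 290 and 313 CPM in methionine pools. Its highest value was that of Embryo423_1 and its lowest that of Embryo444_2. Neither gene differed between diets in edgeR's test (log2 fold change 0.41 with FDR = 0.865 for KARS and -0.20 with FDR = 0.942 for WARS). NARS2 was the steadiest member, with an SD of 0.25 and a range of 24.0 to 50.95 CPM over all 12 pools. The median SD was 0.51 for cytosolic and 0.51 for mitochondrial members, beside 0.60 for all genes tested, and 0.41 and 0.39 without Embryo444_2 and Embryo511_1, beside 0.47.

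The lowest of the 12 values lay in Embryo444_2 or Embryo511_1 for 16 of the 20 cytosolic genes (80%) and 9 of the 16 mitochondrial genes (56.2%), beside 38.3% of all genes tested. The highest value lay in one of these pools for 4 cytosolic and 4 mitochondrial genes, beside 38.8% of all genes. Among the exceptions were GARS (107 CPM) and PARS2 (240 CPM), whose highest values were in Embryo511_1, and WARS2 (166 CPM), whose highest was in Embryo444_2. In bulk pools, fewer cells of a type and less RNA per cell cannot be told apart, and the part of the low trophectoderm markers of these pools in their synthetase levels was not tested.

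**Figure D4:**
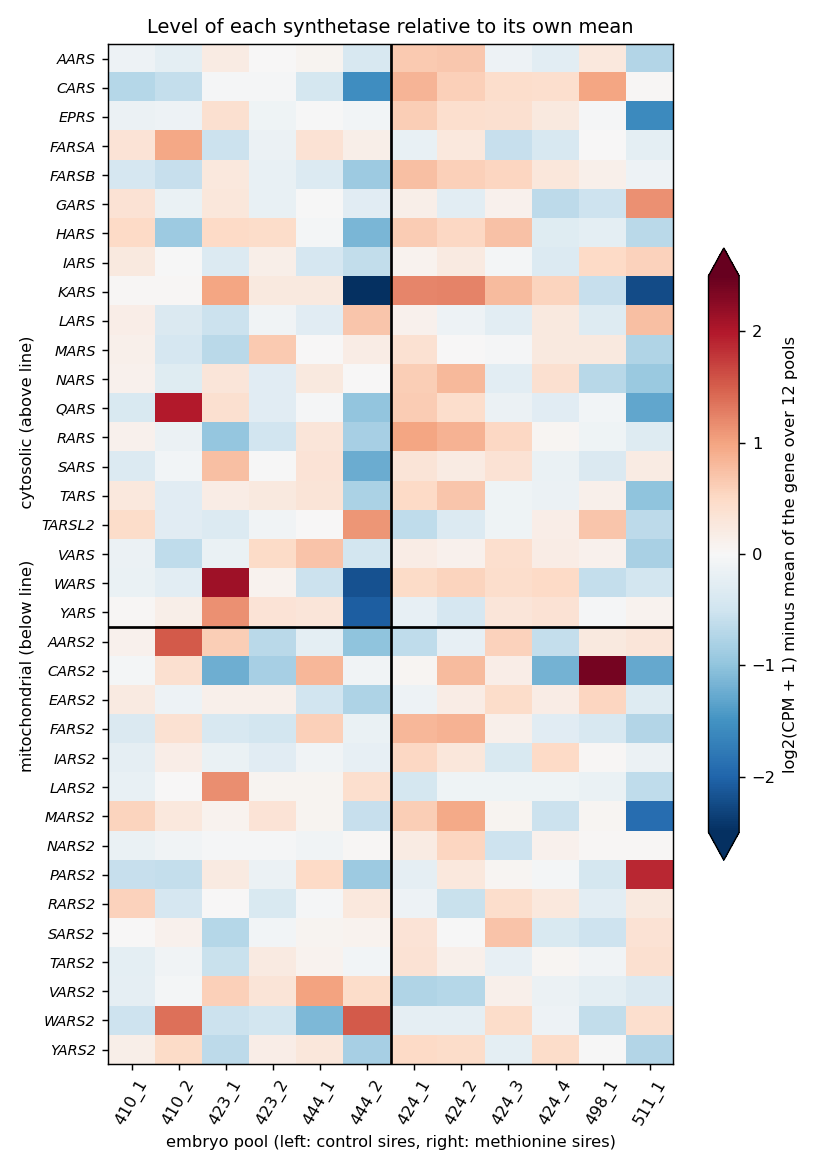
Log2(CPM + 1) of 35 synthetase genes (rows, 20 cytosolic above and 15 mitochondrial below the line) in each embryo pool (columns, control sires left and methionine sires right), minus the mean of that gene over 12 pools. Red is above and blue below that mean. Embryo444_2 and Embryo511_1 are the columns with most blue cells among the cytosolic genes beside Embryo410_2 (15, 14 and 16 of 20 below the mean), and single dark red cells mark WARS in Embryo423_1, QARS in Embryo410_2 and CARS2 in Embryo498_1.

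Of 18 listed genes that work with the synthetases, 14 were measured. None of the 14 had an unadjusted p under 0.05 by diet, beside 7.92% of all genes tested, with 10 positive and 4 negative fold changes. The complex scaffolds AIMP1 and EEF1E1 were at 0.42 (SE 0.27) and 0.42 (SE 0.30). Among the genes for charged mitochondrial tRNA, MTFMT, which formylates the initiator methionine, was at 0.27 (SE 0.31), and GATB, GATC and QRSL1, which together make glutaminyl-tRNA from glutamyl-tRNA, were at -0.41, 0.16 and 0.32. The elongation factors that carry charged tRNA to the ribosome had the largest positive values, 1.07 (SE 0.61) for cytosolic EEF1A1 and 0.60 (SE 0.32) for mitochondrial TUFM. DTD1, which clears D-amino acids from tRNA, had the largest negative value, -0.64 (SE 0.50). The sensor EIF2AK4 was at -0.09 (SE 0.27). Of the cell type markers, KRT19 was lower (-1.31, SE 0.44) and ZP2 (0.98, SE 0.41) and ZP3 (2.35, SE 0.81) higher in embryos from treatment sires with unadjusted edgeR p of 0.0089, 0.0282 and 0.0102 and FDR of 0.584, 0.607 and 0.584. The ZP3 value rested on Embryo511_1 (410 CPM), as the other 5 methionine pools held 12.3 to 26.8 CPM and the control pools 9.21 to 27.6 CPM. ZP2 was at 205 CPM there, while embryos from control sires had 27.9 to 54.5 CPM and the remaining 5 pools from treatment sires 35.5 to 53.1 CPM. The summed trophectoderm markers were 195 to 11753 CPM in control and 136 to 14252 CPM in methionine pools and the summed zona genes 39.3 to 64.8 and 48.8 to 616 CPM, and their part in the CARS difference was not tested.

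Among the cytosines and windows that the study tied to genes, CARS and RARS were the members named. The CARS cytosine lies in an intron, at position 50425765 of chromosome 21 on the plus strand (Oar_rambouillet_v1.0), and was picked on these same rams, so its values are a description. In sperm 62.5% of 24 reads were methylated in Ram410 (95% Wilson interval 42.7 to 78.8%), 65.7% of 102 in Ram423 (56.1 to 74.2%) and 72.2% of 54 in Ram444 (59.1 to 82.4%). In methionine-treated rams it was 42.6% of 61 reads in Ram424 (31.0 to 55.1%), 33.3% of 90 in Ram498 (24.5 to 43.6%) and 39.0% of 141 in Ram511 (31.3 to 47.2%). The rams did not overlap, and the means were 66.8% ± 4.96 and 38.3% ± 4.68 (SD, n = 3 each). The logistic model gave a difference of -29.2 points in pooled reads with q = 7.92e-06, one of 341 differentially methylated cytosines (DMCs; 0.0184% of 1850625), while an F test in place of the chi-square test gave q = 0.971 here and no DMC at all.

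The lower level was shared by the cytosines next to it. Of 17 other cytosines within 50 bases, 16 were lower in every methionine-treated ram than in every control ram, beside 1.35% of all cytosines, and 12 passed the DMC criteria, though they share reads with the first. Their pooled level was 58.3, 59.6 and 69.9% in Ram410, Ram423 and Ram444 and 34.4, 24.0 and 34.6% in Ram424, Ram498 and Ram511. From 59 to 348 bases upstream 19 of 33 cytosines were lower in every methionine-treated ram, and there Ram410 was at 31.4%, nearer to the methionine-treated rams (25.8, 16.9 and 21.8%) than to Ram423 and Ram444 (51.4 and 62.5%). From 534 to 4777 bases downstream pooled levels were 8.85 to 20.1% in all 6 rams, and 10 of 75 cytosines were lower in every methionine-treated ram. From 1254 to 4053 bases upstream pooled levels were 82.1, 84.9 and 86.1% in Ram410, Ram423 and Ram444 and 79.8, 70.3 and 72.4% in Ram424, Ram498 and Ram511, and 12 of 95 cytosines were lower in every methionine-treated ram. Neither of these outer stretches held a DMC.

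**Figure D5:**
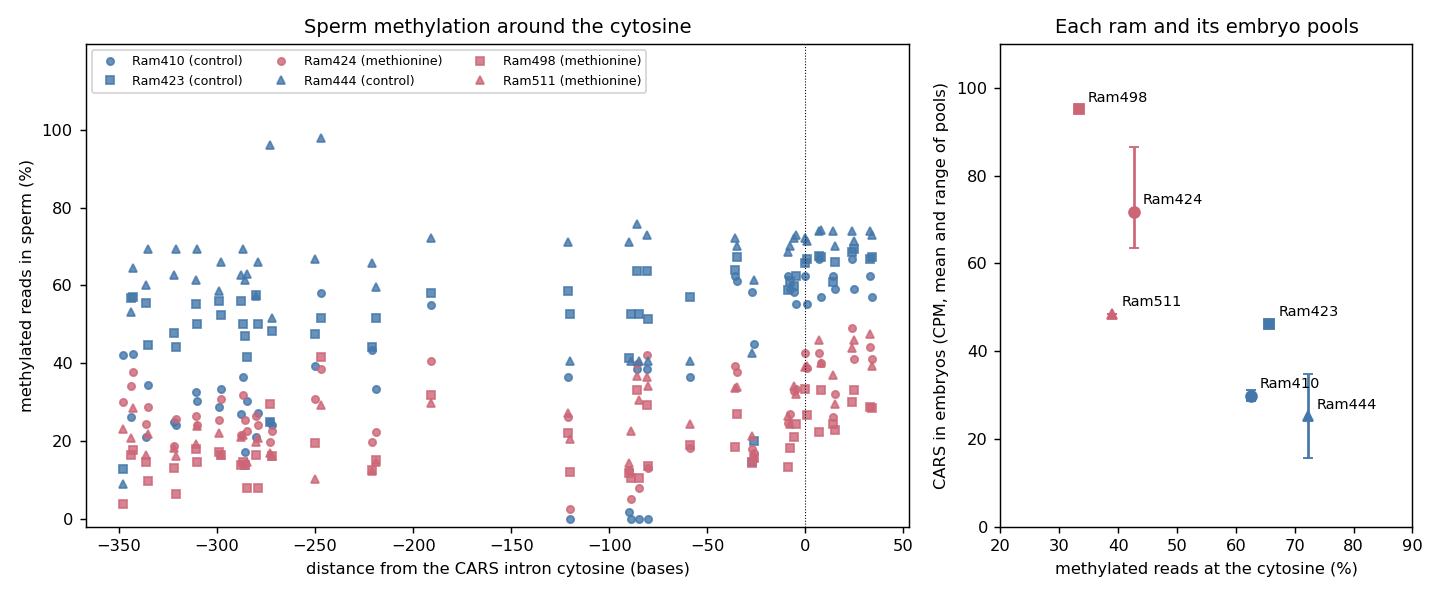
Left, percentage of methylated reads in sperm of each ram at cytosines around the CARS intron cytosine (x axis, distance in bases, both strands). Right, level at that cytosine (x axis) against CARS in the embryos of the same ram (y axis, CPM, mean with the range of its pools; Ram498 and Ram511 have 1 pool). Control rams (blue) are at 62.5 to 72.2% and 25.2 to 46.3 CPM and methionine-treated rams (red) at 33.3 to 42.6% and 48.6 to 95.1 CPM.

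Set beside the sperm values, mean CARS in the embryos was 29.9, 46.3 and 25.2 CPM for Ram410, Ram423 and Ram444 and 71.8, 95.1 and 48.6 CPM for Ram424, Ram498 and Ram511. The study reported a negative correlation between methylation at the CARS cytosine and CARS expression in embryos. Here the rams formed 2 clusters that were the 2 diets, so no correlation over the 6 was computed. Within control rams the highest CARS level went with the middle methylation level (Ram423). Within methionine-treated rams the ram with the lowest methylation (Ram498) had the highest CARS level and the ram in the middle (Ram511) the lowest. These orders are not resolved, since the Wilson intervals of the methylation levels overlapped between rams of the same diet. The CARS level of Ram511 was that of Embryo511_1 alone, and the mean of Ram444 included Embryo444_2.

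The window that the study listed near RARS, with WWC1, covered 84110801 to 84111000 on chromosome 5 and held 3 cytosines. Summed over the 3 cytosines, the level was 26.2, 23.8 and 36.4% in Ram410, Ram423 and Ram444 and 8.0, 2.38 and 5.08% in Ram424, Ram498 and Ram511. Each cytosine had 12 to 20 reads in a ram. The sums were 42 to 59 a ram, in which a read that spans more than 1 cytosine counts at each. All 3 cytosines were lower in each methionine-treated ram than in each control ram, beside 1.35% of all cytosines, but none was itself a DMC. The window was picked by diet on these same rams, and its cytosines can share reads, so these values are a description. Ram498, with the lowest level in this window, had embryos with 68.6 CPM of RARS, between the 73.2 CPM of Ram410 and the 65.9 CPM of Ram444.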

How the data were processed

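RNA from pools of embryos was amplified as whole transcriptomes, and the authors trimmed reads, aligned them with STAR to Oar_rambouillet_v1.0 and deposited raw counts per gene. The strand setting is not given in the sources used here. No molecular identifiers are described for the RNA libraries, so PCR copies may count as separate reads. For RRBS, the authors aligned with Bismark, removed duplicates by molecular identifiers and deposited counts of methylated and unmethylated reads at cytosines with at least 10 reads in each ram (median 22 to 39 by ram). Total counts were 1017847 to 2398589 a pool. These are reads assigned to genes, far fewer than the reads sequenced per pool that the paper reports. The reason for the gap was not tested.

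Genes that reached 15 counts in at least 4 pools were normalized by TMM and tested by diet in edgeR 4.0.16 with its quasi-likelihood test (R 4.3.3), with Benjamini-Hochberg FDR under 0.05 over all genes. SEs are the fold change over the square root of F. CPM used TMM library sizes, and logs a pseudocount of 1. Exact permutation tests covered CARS, MARS, MARS2 and members with unadjusted p under 0.05 (7 genes). Methylation was fitted by logistic regression with overdispersion of at least 1 and a chi-square test (DMC: q under 0.01, over 20 points). The age of each ram was not in the labels used here, so the age term of the study was left out. Scripts were tested on simulated data. Alternatives used limma 3.58.1 and DESeq2 1.42.0, and the methylation steps used Python 3.11.15 with scipy 1.17.1.

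Members and gene lists were chosen with earlier results of these data known. Named genes were CARS, CARS2, MARS, MARS2, members with unadjusted p under 0.05 and the 3 with the largest SD. Other members named were picked for extreme values, as partners, for a p under 0.05 in an alternative, or to set beside VARS2 and LARS2 (IARS2). The rule's levels per kb, and the pairs ranked by them, were dropped because no transcript lengths of this build were used here, and pairs were named by their difference and SD instead. The single values of 1 member are not reported here, although it is part of the class counts and sums.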

Additional observations from a re-analysis of the deposited data

Results flagged for a closer look

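In each diet the highest and the lowest of the 6 pools were compared with the nearest other pool (Dixon's test at 0.625 on log2(CPM + 1), 70 groups of 6). Chance flags about 1 in 20 groups, and 8 values were flagged. Embryo511_1 held 4 of them: it was low among methionine pools in EPRS (55.5 CPM, others 166 to 260), MARS (31.7 CPM, others 52.9 to 70.7) and VARS (28.8 CPM, others 54.8 to 68.5), and high in PARS2 (240 CPM, others 47.6 to 78.1). Embryo444_2 was low among control pools in KARS (61.6 CPM, others 361 to 710) and YARS (28.3 CPM, others 125 to 272). Embryo423_1 was high among control pools in EPRS (224 CPM, others 153 to 168) and low in SARS2 (28.6 CPM, others 45.6 to 51.7). Both Embryo444_2 and Embryo511_1 stood apart over all genes, and Embryo423_1 did not.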

How the results depend on the processing

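No member passed FDR under 0.05 under any of 26 alternatives, and CARS kept its direction in each. The 26 hold repeats: for Ram498 and Ram511, each with a single pool, leaving out the ram or its pool is the same fit. Log2 fold changes of CARS were 0.91 to 1.39 as pools or rams were left out. Its FDR was 0.0779 (DESeq2) to 1 (limma voom with the ram as a random effect). Genes with FDR under 0.05 numbered 5 by the likelihood-ratio test, 16 by DESeq2 and 1 without Embryo444_2 and Embryo511_1, a setting chosen after seeing the data. Members with an unadjusted p under 0.05 fell to 1 with pools summed per ram (3.47% of all genes) and 3 with the ram as a random effect (2.15%). They were 3 to 5 as each pool or ram was left out (5.63 to 11.8% of all genes), but not always the same members. Without Ram424 the 4 were CARS, CARS2, NARS and PARS2 (8.58% of all genes), and only CARS was among those of the main fit. Signs turned for named members without an unadjusted p under 0.05 in the main fit. Over the left-out pools and rams CARS2 was -0.0685 to 1.55, MARS -0.21 to 0.17 and MARS2 -0.78 to 0.16. Over the same settings KARS was -1.31 to 0.79 and WARS -0.94 to 0.84. With pools summed per ram MARS was -0.0565 and KARS -0.17, with the random effect KARS was -0.25 and WARS 0.11, and without Embryo444_2 and Embryo511_1 MARS2 was 0.026. The cytosolic to mitochondrial difference was -0.02 to 0.30 over the left-out pools. DMCs numbered 0 with the F test, 5905 without the overdispersion correction, 61 at a coverage of at least 20 reads and 446 to 1424 as each ram was left out. The CARS cytosine stayed a DMC in all of these but the F test (-29.2 points, q = 0.971), at -31.2 to -27.1 points as rams were left out. With few rams the F test has few residual degrees of freedom and could hardly call any cytosine, so it decides nothing here. The causes of these shifts were not tested. Levels scaled to coding length were not run. Few rams, uneven pools per ram and amplified RNA limit all embryo comparisons, and 24 reads in Ram410 limit the CARS cytosine.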
